A study of Mus musculus with 12 samples.

Results

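The comparison of 1 with 2 days post injury (dpi) used 6 of the 12 RNA-seq libraries of a study of muscle macrophages after hindlimb ischemia, namely all 3 libraries of 1 dpi and all 3 of 2 dpi, and every gene of the count table. The mice were C57BL6J wild type males, 8 to 12 weeks old by the methods of the study, in which the femoral artery was ligated. Every library is therefore from an injured limb, and no uninjured sample is among the 6. The labels call the cells recruited macrophages. They came from digested calf muscle and were CD45+CD11b+F4/80+CD64+ by a CD45 stain of the whole digest, which by the study's definition also takes in leukocytes still in the circulation. Whether a library was made from 1 mouse or from a pool is not stated in the sources. P values therefore reflect only the spread among libraries of the same day, and that spread may be technical. It was estimated over all 12 libraries of the study, including those of later days, and not over the 6 compared libraries alone.

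After muscle ischemia, monocytes leave the blood, enter the damaged tissue and become macrophages. Early macrophages are known for cytokines and chemokines that draw in further leukocytes, whereas later ones clear dead fibres and cells by phagocytosis, digest them in lysosomes and secrete factors that act on muscle precursors, vessels and matrix. The comparison asks which of these programmes differ between the first and the second day.

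The 12 general macrophage markers were expressed in all 6 libraries, with a summed level of 8679 to 9965 CPM (counts relative to the TMM-scaled library size) at 1 dpi and 9712 to 10500 CPM at 2 dpi. Lyz2 was the largest part of this sum, with 3009 to 4245 CPM at 1 dpi and 5443 to 6110 CPM at 2 dpi. Of the 12 markers 4 lay wholly above at 2 dpi and 5 wholly below, beside 20.9% and 18.5% of all genes tested. Csf1r, the receptor for macrophage colony-stimulating factor, differed by a log2 fold change (log2FC, 2 dpi minus 1 dpi) of -0.05. Adgre1, which encodes F4/80, had 292, 316 and 245 CPM at 1 dpi and 452, 473 and 475 CPM at 2 dpi, replicates 1 to 3 in order here and below. Its 2 dpi libraries were all higher, but its log2FC of 0.71 (SE 0.20, adjusted P = 0.0263) was under the fold threshold. Fcgr1, which encodes the sort marker CD64, was lower in all 2 dpi libraries, also under the threshold (log2FC -0.71, SE 0.21, adjusted P = 0.0358). Ptprc, which encodes CD45, was likewise lower in all of them (log2FC -0.45, adjusted P = 0.113). Itgam, which encodes CD11b, and Cd14 were called lower with log2FCs of -1.02 and -1.02, close to the threshold. Itgam was not called without 1 dpi replicate 2 or 2 dpi replicate 2, nor Cd14 without 1 dpi replicate 1 or 2 or 2 dpi replicate 2 or 3.

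The summed level of 16 neutrophil markers was 316 to 477 CPM at 1 dpi and 113 to 156 CPM at 2 dpi, and 7 of the 9 that could be tested were lower at 2 dpi. Without 1 dpi replicate 1 or 2 dpi replicate 1, 2 were called. The markers most restricted to neutrophils were at or near 0: Camp had no count in the 6 libraries, and Ly6g reached at most 0.314 CPM. The erythroid and platelet list fell from 630 to 2063 CPM to 51.6 to 66.9 CPM through a single gene, the platelet and monocyte chemokine Ppbp, while the platelet genes Itga2b and Gp1bb had no count and no globin gene was called. T and NK cell markers summed to under 1 CPM in every library, with Cd3g, Trac, Trbc2, Cd8a and Cd8b1 at 0. Muscle fibre markers summed to 8.72 to 21.5 CPM and 9.50 to 13.6 CPM, and none of the 12 tested was called. In a bulk library, fewer cells of a type and less RNA per cell cannot be told apart. The part of the neutrophil markers in the results below was not tested.

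**Figure D1:**
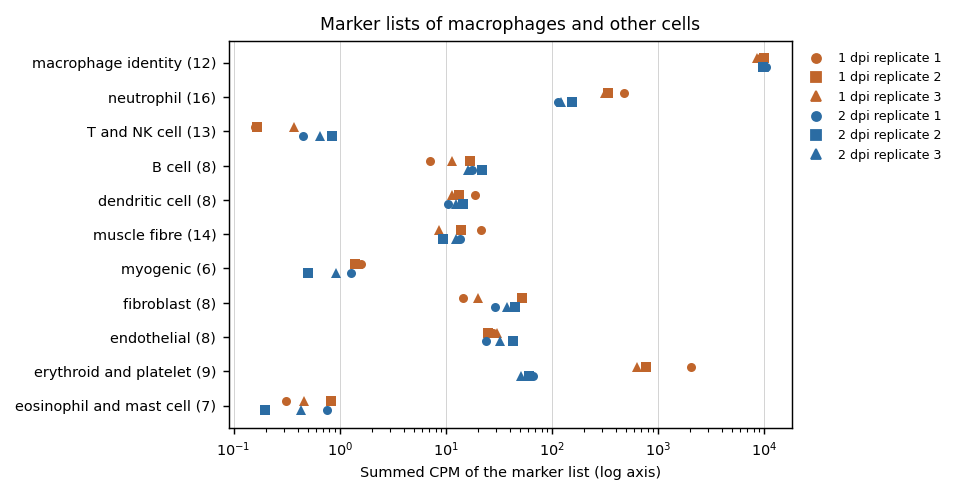
Summed CPM of each marker list (x-axis, log axis) in the 3 libraries of 1 dpi and the 3 of 2 dpi (1 point per library), with the number of genes in each list in brackets. Macrophage markers lie between 8679 and 10500 CPM in all 6 libraries, while the neutrophil list is lower at 2 dpi, at 113 to 156 CPM, as is the erythroid and platelet list.

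Total counts were 19528316 to 33599472 per library. ENSMUSG00000119584, to which no symbol could be joined, held 54.2% ± 1.38 (SD, n = 3) of them at 1 dpi and 43.0% ± 2.87 at 2 dpi. That left 8992759 to 15812238 counts for all other genes. Genes of the mitochondrial DNA took 8.51% to 10.2% of these at 1 dpi and 4.77% to 5.36% at 2 dpi. Both shares separate the days, so they cannot be told apart from the time point. The mitochondrial share was mostly 1 ribosomal RNA gene, mt-Rnr2, with 51540 to 63205 CPM at 1 dpi and 25273 to 28280 CPM at 2 dpi. The next highest mitochondrial gene listed, mt-Cytb, reached at most 1110 CPM. Libraries of the same day correlated in log2 CPM at 0.955 or more, and libraries of different days at 0.929 to 0.947, across genes, which are not independent replicates.

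Of 14310 genes tested, 729 were upregulated (5.09% of the genes tested) and 568 downregulated (3.97%) at an adjusted P under 0.05 and an absolute log2FC above 1 in edgeR's quasi-likelihood test with Benjamini-Hochberg adjustment. The median log2FC of all genes was 0.00931. The libraries of 2 dpi lay wholly above those of 1 dpi for 20.9% of the genes tested and wholly below for 18.5%. Fits that left out 1 of the 12 libraries in turn called 417 genes up (2.91%) and 245 down (1.71%) every time. Below, genes are said to rise or fall where they were called in every one of these 12 fits. For most other called genes that are named, the deciding libraries or the number of fits with the call are given. Of the 568 downregulated genes, 286 had their highest 1 dpi value in replicate 1, and of the 729 upregulated genes 398 had their lowest there. Replicate 1 was thus more often the 1 dpi library farthest from 2 dpi than replicates 2 and 3.

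**Figure D2:**
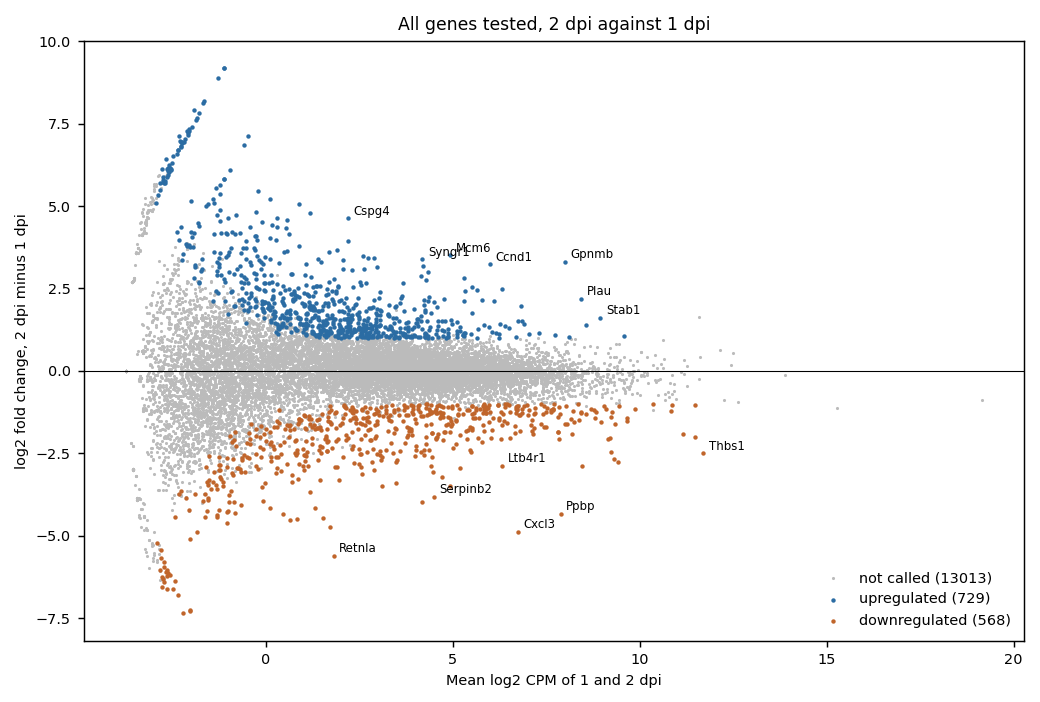
Log2FC from 1 to 2 dpi (y-axis) against the mean log2 CPM of both days (x-axis) for 14310 genes, with 729 upregulated genes in blue, 568 downregulated genes in orange and all others in grey. Among the labelled genes Gpnmb, Ccnd1 and Cspg4 lie above 0, and Retnla, Cxcl3, Ppbp and Thbs1 below.

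Outside the lists of inflammation, monocytes and replication, the 15 largest increases among well-expressed genes ranged from a log2FC of 2.42 to 4.63. Gpnmb, a transmembrane glycoprotein of phagocytic macrophages, had 43.1, 85.1 and 137 CPM at 1 dpi and 774, 647 and 1199.7 CPM at 2 dpi. Syngr1, a vesicle membrane protein, had 5.66, 6.32 and 4.94 CPM at 1 dpi and 61.2, 50.3 and 65.7 CPM at 2 dpi. In both genes the lowest 2 dpi library was several times above the highest 1 dpi library (log2FC of Syngr1 = 3.39, SE 0.41, adjusted P = 8.29e-05). Cspg4, the NG2 proteoglycan best known from pericytes, had 1.10, 1.40 and 0.369 CPM at 1 dpi and 22.4, 16.9 and 31.5 CPM at 2 dpi. It had the largest log2FC of the 15 (4.63, SE 0.53, adjusted P = 5.94e-05) and no overlap between the days. Olfml3, a secreted olfactomedin-like glycoprotein, had 6.84, 8.21 and 6.46 CPM at 1 dpi and 52.9, 54.0 and 67.1 CPM at 2 dpi (log2FC = 3.01, SE 0.30, adjusted P = 2.9e-05). Cx3cr1, the fractalkine receptor of non-classical monocytes and resident macrophages, had 8.49, 29.5 and 17.8 CPM at 1 dpi and 75.9, 121 and 103 CPM at 2 dpi. The lowest 2 dpi value of Cx3cr1 was above all 1 dpi values (log2FC = 2.42, SE 0.37, adjusted P = 0.000512). Fcrls, a scavenger receptor-like relative of the Fc receptors, rose likewise (log2FC = 2.49, SE 0.24, adjusted P = 1.85e-05). Nlrc3, Scamp5 and Zranb3, the last a helicase of stalled replication forks, completed the increases, with log2FCs of 2.71, 2.66 and 3.44.

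Ch25h, which makes 25-hydroxycholesterol, had 2.75, 2.22 and 1.48 CPM at 1 dpi and 17.6, 23.7 and 13.5 CPM at 2 dpi. Gpr183, the receptor for a dihydroxycholesterol made from it, had 6.52, 15.3 and 7.43 CPM at 1 dpi and 38.2, 42.0 and 38.2 CPM at 2 dpi. For both genes the days did not overlap, with log2FCs of 3.11 (SE 0.66, adjusted P = 0.00523) and 1.999 (SE 0.29, adjusted P = 0.00027). Gatm, the first enzyme of creatine synthesis, had 9.12, 17.4 and 18.9 CPM at 1 dpi and 118, 106 and 95.9 CPM at 2 dpi. Ckb, a creatine kinase, had 14.6, 28.0 and 22.5 CPM at 1 dpi and 125, 109.8 and 121 CPM at 2 dpi. Their log2FCs were 2.81 (SE 0.28, adjusted P = 2.9e-05) and 2.44 (SE 0.26, adjusted P = 2.98e-05), and every 2 dpi library was above every 1 dpi library. The creatine transporter gene Slc6a8 was called with a log2FC of 1.03, but not without 1 dpi replicate 1 or 2 or 2 dpi replicate 1 or 3. Hpgds, which makes prostaglandin D, had 2.51, 2.63 and 2.68 CPM at 1 dpi and 22.0, 24.3 and 23.4 CPM at 2 dpi, a narrow range on either day (log2FC = 3.15, SE 0.25, adjusted P = 3.02e-06).

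The 15 largest decreases ranged from a log2FC of -2.58 to -5.60. Retnla, a resistin-like protein induced by type 2 cytokines, had 35.7, 18.4 and 17.4 CPM at 1 dpi and 0.451, 0.498 and 0.502 CPM at 2 dpi. Serpinb2, an inhibitor of plasminogen activators, had 139, 59.1 and 64.7 CPM at 1 dpi and 7.25, 5.48 and 5.88 CPM at 2 dpi. Both fell with no overlap, and replicate 1 was their highest library of 1 dpi (log2FC of Serpinb2 = -3.82, SE 0.47, adjusted P = 8.67e-05). Trem1, an amplifying receptor of neutrophils and monocytes, had 141, 93.0 and 81.4 CPM at 1 dpi and 13.7, 15.7 and 11.04 CPM at 2 dpi. Ltb4r1, the high-affinity receptor for leukotriene B4, had 287, 201 and 172 CPM at 1 dpi and 33.7, 28.6 and 27.4 CPM at 2 dpi. The log2FCs were -2.96 (SE 0.51, adjusted P = 0.0013) and -2.88 (SE 0.56, adjusted P = 0.0029), and replicate 1 was the highest library of 1 dpi for both. Slpi, a leukocyte protease inhibitor, and Lrg1, a secreted leucine-rich glycoprotein, fell with log2FCs of -3.51 and -3.42. Adamtsl4, Ifitm6, B3gnt5 and the insulin-like growth factor binding protein gene Igfbp6 fell with log2FCs of -2.78, -2.77, -2.70 and -2.91. A relative of the last, Igfbp4, moved the other way and had 18.9, 23.2 and 14.7 CPM at 1 dpi and 124, 119 and 91.7 CPM at 2 dpi.

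**Figure D3:**
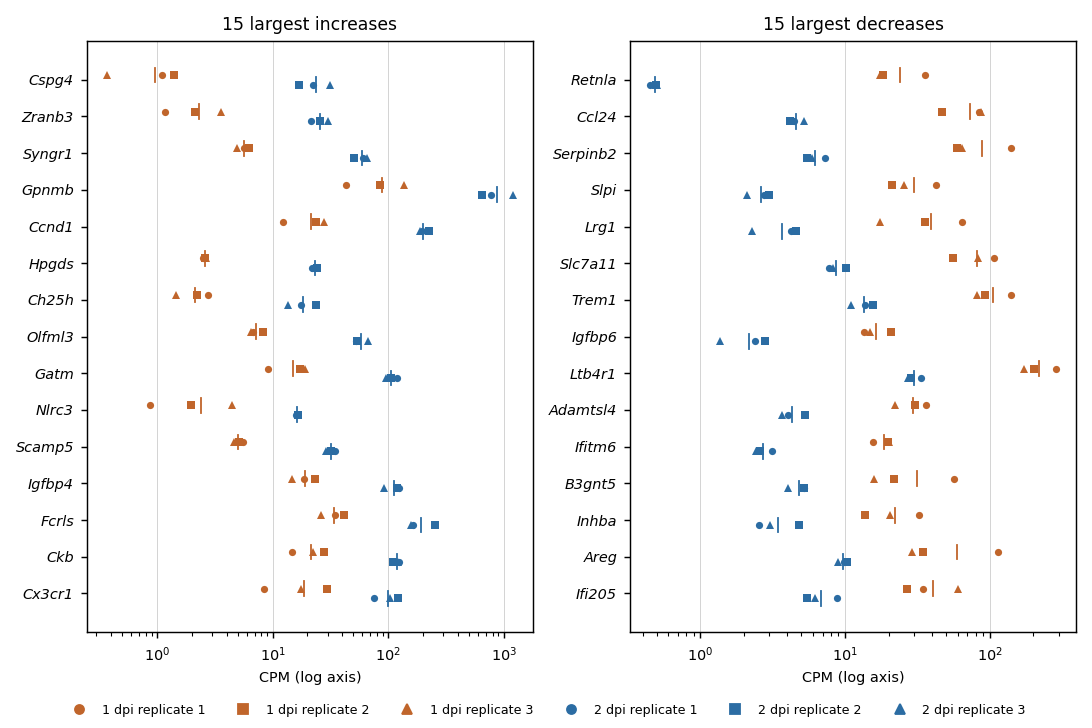
CPM (x-axis, log axis) of the 15 largest increases and the 15 largest decreases named by the rule, with 1 point per library in the 3 libraries of 1 dpi (orange) and of 2 dpi (blue) and the mean as a vertical tick. The days do not overlap for any of the 30 genes, which the rule required, and replicate 1 is often the highest 1 dpi library among the decreases.

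The gene lists differed widely in how many members were called. Of 52 DNA replication genes 39 were up and none down, and of 63 mitosis genes 49 up and none down, while 19 of 32 inflammatory genes and 10 of 13 monocyte genes were down and none up. These, and the list counts below, are read against 5.09% of all genes up and 3.97% down. Lists share members, so their counts are not independent. Cxcl3 counts among inflammatory and chemokine genes, and Chil3 among monocyte and alternative activation genes. In the other lists, the largest shares were up for DNA repair (15 of 40, with 1 down) and for G1 cyclins and inhibitors (7 of 25). They were down for MHC class II (6 of 13), chemokines (10 of 24), chemokine and related receptors (11 of 29, with 3 up), C-type lectins and Siglecs (11 of 30, with 1 up) and alternative activation (8 of 22, with 1 up). C-type lectins called down numbered 7 when 1 dpi replicate 1 was left out and 6 when 2 dpi replicate 3 was. Chemokine and related receptors called down numbered 6 without 1 dpi replicate 1.

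**Figure D4:**
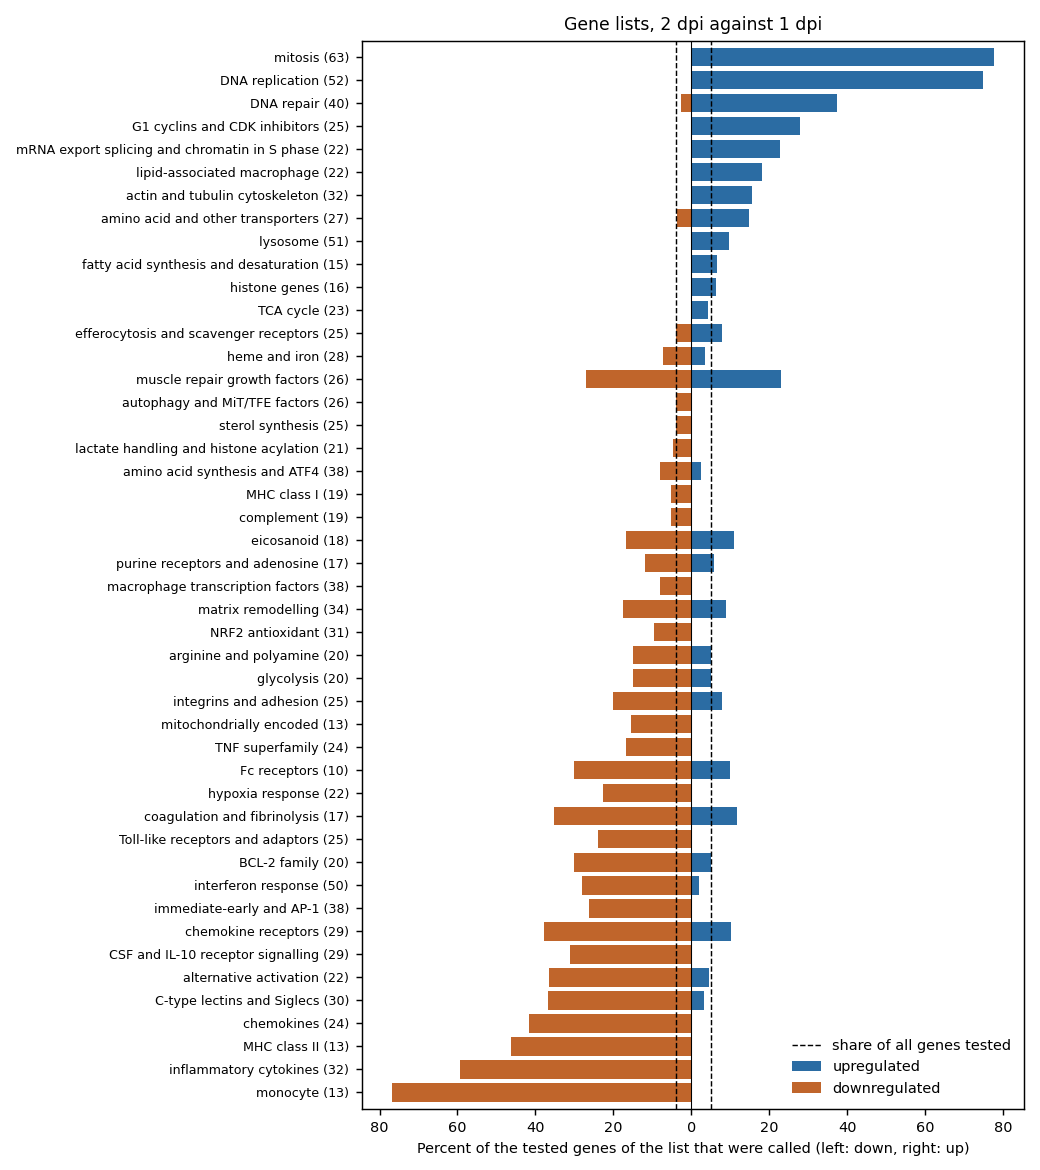
Percent of the tested genes of each list (number in brackets) that were upregulated (blue, to the right) or downregulated (orange, to the left) from 1 to 2 dpi, for lists with at least 1 called gene and 10 tested. Dashed lines mark the share of all genes tested, 5.09% up and 3.97% down. Mitosis and DNA replication stand at the top, and monocyte, inflammatory and MHC class II genes at the bottom.

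Of 25 G1 cyclins, inhibitors and related genes 7 were called up and none down, with 1 down without 1 dpi replicate 1 or 2 dpi replicate 2. Ccnd1, which encodes cyclin D1 of early G1 phase, had 12.3, 24.0 and 28.1 CPM at 1 dpi and 195, 224 and 187 CPM at 2 dpi. The lowest 2 dpi library was several times the highest 1 dpi library (log2FC = 3.23, SE 0.54, adjusted P = 0.000991). The E-type cyclins of the G1 to S transition followed, with 0.393, 0.123 and 0.554 CPM at 1 dpi and 4.88, 5.62 and 8.10 CPM at 2 dpi for Ccne2 (log2FC = 4.14, SE 0.62, adjusted P = 0.000381) and a log2FC of 2.33 for Ccne1. Rbl1, a relative of the retinoblastoma protein, rose with a log2FC of 1.39 (SE 0.26, adjusted P = 0.00214). E2f7, a repressor of the E2F family, was near 0 at 1 dpi (0, 0.246 and 0 CPM) and had 1.20, 1.79 and 2.58 CPM at 2 dpi (adjusted P = 0.00373). Its fitted fold change depends on how such low counts are handled and is not given. E2f8 and E2f1 were called less firmly, in 11 and 6 of the 12 fits, and the kinase genes Cdk2, Cdk4 and Cdk6 were not called.

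DNA repair genes were called up in 15 of 40 cases, 11 of them in every fit, with a median log2FC of 1.21. Chek1, a checkpoint kinase of replication stress, had 0.629, 0.0821 and 0.0923 CPM at 1 dpi and 5.78, 5.77 and 5.23 CPM at 2 dpi. Fancd2, of the Fanconi pathway for DNA crosslinks, had 0, 0.0821 and 0.0461 CPM at 1 dpi and 1.20, 2.09 and 1.51 CPM at 2 dpi. Both genes were close to 0 at 1 dpi and without overlap between the days (adjusted P = 0.000498 and 0.000511). Chromatin genes that act at replicating DNA rose in 5 of 22 cases. The maintenance methyltransferase gene Dnmt1 had 12.6, 21.3 and 21.0 CPM at 1 dpi and 52.5, 55.9 and 54.0 CPM at 2 dpi (log2FC = 1.56, SE 0.25, adjusted P = 0.000779), and Uhrf1, which guides this enzyme, rose with a log2FC of 3.44 (SE 0.55, adjusted P = 0.000639). Hells, a chromatin remodeller, Suv39h1, a methyltransferase of lysine 9 of histone H3, and, from the replication list, the histone chaperone gene Asf1b rose with log2FCs of 3.66, 1.44 and 2.58. Among cytoskeletal genes 4 of the 5 called were tubulins and the other was Myo1e. Tubb5 had 258, 236 and 206 CPM at 1 dpi and 546, 639 and 659 CPM at 2 dpi (log2FC = 1.40, SE 0.25, adjusted P = 0.00139), while Actb and Actg1 were not called. Of the 32 cytoskeletal genes 5 were called up, 2 without 1 dpi replicate 3 and 3 without 2 dpi replicate 3.

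Short motifs known from promoters of cycling genes were counted in the 250 bases upstream of RefSeq start sites (build GRCm38.p6, not the build of the counts). A gene was taken to hold a motif when any of its windows held it on either strand. The E2F motif, searched as TTGGCGC or TTCCCGC, was in 31.0% of 42 DNA replication genes with a window and in 33.3% of 18 G1 genes. It was in 11.6% of the 10034 tested genes with a window and in 6.45% of all 27025 genes with one. The cell cycle homology region (CHR), searched as TTTGAA, was in 39.6% of 53 mitosis genes, 13.1% of the tested genes and 18.3% of all genes. CCAAT, the site of the factor NF-Y, was in 69.8% of the mitosis genes, 40.3% of the tested genes and 37.5% of all genes. Neither motif was particular to the mitosis genes. CHR was also in 40% of 25 C-type lectin and Siglec genes. CCAAT was in 94.1% of 17 sterol synthesis genes and 87.5% of 8 MHC class II genes. Among all upregulated genes the shares were 14.1% for E2F, 16.1% for CHR and 51.8% for CCAAT, and among all downregulated genes 7.59%, 16.8% and 37.1%. The shares are a description of these windows, and a match is not evidence of a bound site. The windows of Mcm6, a subunit of the replicative helicase, and E2f7 are shown with the E2F motif in capitals, and that of Cdk1, the mitotic kinase, with CHR in capitals.
Mcm6, chr1:128359706-128359955, minus strand: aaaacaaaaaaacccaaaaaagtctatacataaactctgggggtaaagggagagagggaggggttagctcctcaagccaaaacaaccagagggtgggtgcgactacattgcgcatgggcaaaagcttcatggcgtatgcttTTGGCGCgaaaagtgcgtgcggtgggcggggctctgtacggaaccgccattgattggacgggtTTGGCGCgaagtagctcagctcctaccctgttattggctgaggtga
E2f7, chr10:110745189-110745438, plus strand: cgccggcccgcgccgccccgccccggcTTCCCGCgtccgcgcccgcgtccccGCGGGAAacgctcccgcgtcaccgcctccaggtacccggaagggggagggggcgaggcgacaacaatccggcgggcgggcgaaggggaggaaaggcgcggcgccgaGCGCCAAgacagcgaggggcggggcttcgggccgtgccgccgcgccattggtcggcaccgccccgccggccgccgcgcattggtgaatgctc
Cdk1, chr10:69352913-69353162, minus strand: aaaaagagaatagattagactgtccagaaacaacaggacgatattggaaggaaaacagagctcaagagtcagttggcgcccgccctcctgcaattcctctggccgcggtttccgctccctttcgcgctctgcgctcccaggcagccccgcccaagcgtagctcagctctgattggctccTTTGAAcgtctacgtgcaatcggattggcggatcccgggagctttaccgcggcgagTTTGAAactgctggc
The expression of Mcm6 beside this window was 8.33, 11.1 and 7.94 CPM at 1 dpi and 95.4, 108 and 109.7 CPM at 2 dpi (log2FC = 3.51, SE 0.45, adjusted P = 0.000115). That of Cdk1 differed by a log2FC of 3.62 (adjusted P = 0.00209).

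Gusb, which encodes beta-glucuronidase, had 126, 149 and 165 CPM at 1 dpi and 303, 306 and 329 CPM at 2 dpi, and Sgsh, a sulfatase of heparan sulfate breakdown, had 3.69, 4.15 and 3.74 CPM at 1 dpi and 7.77, 10.0 and 11.5 CPM at 2 dpi. No 1 dpi library reached a 2 dpi library for these genes, with log2FCs of 1.09 (SE 0.26, adjusted P = 0.00957) and 1.33 (SE 0.25, adjusted P = 0.00201). Of 51 lysosomal genes 5 were called up, beside 5.09% of all genes, and none down, 36 had a positive log2FC, the median was 0.32, and in 26 of 51 all 2 dpi libraries were above all 1 dpi libraries, beside 20.9% of all genes. Abundant cathepsins were not among the called genes, with log2FCs of 0.56 for Ctsd, 0.55 for Ctsb and 0.37 for Ctsl. The E-box CACGTG, which is bound by regulators of lysosomal genes among others, was in 33.3% of 39 lysosomal genes, 9.89% of tested genes and 6.86% of all genes. The E-box was also in 31.0% of 29 immediate-early and AP-1 genes. Of the 3 called lysosomal genes with a window (Gusb, Manba and Sgsh), Sgsh held it. Manba was not called without 1 dpi replicate 1. Trem2, the lipid-sensing receptor of phagocytes, had 35.8, 56.6 and 49.9 CPM at 1 dpi and 134, 113 and 135 CPM at 2 dpi (log2FC = 1.43, SE 0.30, adjusted P = 0.00493). In the list of lipid-associated macrophages, which holds Gpnmb, Syngr1 and Trem2, 4 of 22 were called and 18 had a positive log2FC (median 0.57).

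Of 25 genes of efferocytosis and scavenging 2 were called up and 1, Clec7a, down, beside 5.09% and 3.97% of all genes, and 2 were down without 1 dpi replicate 1. Gas6, the ligand that links phosphatidylserine to the receptors Mertk and Axl, had 14.4, 15.1 and 9.64 CPM at 1 dpi and 64.0, 70.1 and 43.0 CPM at 2 dpi (log2FC = 2.18, SE 0.25, adjusted P = 5.94e-05). Stab1, a scavenger receptor, had 268, 291 and 294 CPM at 1 dpi and 913, 952 and 744 CPM at 2 dpi (log2FC = 1.61, SE 0.21, adjusted P = 0.000125). The groups were far apart for both, while Mertk itself was not called (log2FC 0.68, adjusted P = 0.0761). Among C-type lectins and Siglecs, Siglec1, a sialic acid receptor of tissue macrophages, had 38.5, 55.0 and 87.5 CPM at 1 dpi and 169, 134 and 141 CPM at 2 dpi (log2FC = 1.29, SE 0.26, adjusted P = 0.00373). The beta-glucan receptor gene Clec7a, a member of both lists, had 142, 159.5 and 181 CPM at 1 dpi and 36.6, 40.5 and 37.0 CPM at 2 dpi (log2FC = -2.08, SE 0.38, adjusted P = 0.00177). The C-type lectins Clec4n and Clec4e, which sense microbial glycans and glycolipids, fell with log2FCs of -2.04 (SE 0.28, adjusted P = 0.000206) and -1.72 (SE 0.30, adjusted P = 0.00138). The inhibitory receptor genes Pirb and Pilra fell by 1.26 and 1.26 on the log2 scale. Pirb has near relatives, so its reads may be shared with them. Among Fc receptors Fcgr4, for IgG2 antibodies, had 53.1, 41.5 and 32.9 CPM at 1 dpi and 13.97, 10.2 and 10.5 CPM at 2 dpi (log2FC = -1.87, SE 0.21, adjusted P = 5.94e-05).

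Of 24 chemokine genes 10 were called down, 6 of them in every fit, and none up, and the median log2FC of the list was -1.17. Ccl6 and Ccl9, ligands of CCR1, were abundant. Ccl6 had 6969, 5479 and 4903 CPM at 1 dpi and 1637, 1357 and 1337 CPM at 2 dpi and Ccl9 5749, 3686 and 3995 CPM at 1 dpi and 1276, 1179.8 and 1073 CPM at 2 dpi. In neither case did the days overlap, and the log2FCs were -2.002 (SE 0.31, adjusted P = 0.000511) and -1.93 (SE 0.28, adjusted P = 0.000286). Ccl24, which attracts eosinophils, had 84.9, 47.1 and 87.1 CPM at 1 dpi and 4.43, 4.18 and 5.23 CPM at 2 dpi (log2FC = -3.98, SE 0.68, adjusted P = 0.00112). Ppbp, a precursor of neutrophil-attracting peptides, had 2058, 762 and 628 CPM at 1 dpi and 65.2, 58.3 and 47.3 CPM at 2 dpi (log2FC = -4.33, SE 0.89, adjusted P = 0.00399). Replicate 1 had the highest 1 dpi value of Ppbp, and the lowest 1 dpi library was still far above every 2 dpi library. Cxcl3, which attracts neutrophils, had the lowest log2FC of the called genes of the list, -4.89 (914, 405 and 482 CPM at 1 dpi and 20.1, 17.4 and 23.4 CPM at 2 dpi). The median of the receptors that sense chemokines, leukotrienes, formyl peptides and lipids was -0.91, with 11 of 29 down and 3 up. The formyl peptide receptor genes Fpr1 and Fpr2 fell with log2FCs of -2.55 and -1.88, and the orphan or lipid receptors Gpr35 and Gpr132 with -1.42 and -1.43. Neutrophil markers fell over the same days, from 316 to 477 CPM to 113 to 156 CPM in sum. In the prostanoid pathway Ptgs2, which encodes the inducible cyclooxygenase, had 1406, 1131 and 1022 CPM at 1 dpi and 319, 299 and 227 CPM at 2 dpi (log2FC = -2.08, SE 0.27, adjusted P = 0.000156), while Hpgds and Ptgr1, a prostaglandin and leukotriene reductase, rose.

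Growth factors divided into 6 that were called up and 7 called down of 26 tested, beside 5.09% and 3.97% of all genes. Igf1, insulin-like growth factor of muscle repair, had 8.49, 8.95 and 12.6 CPM at 1 dpi and 40.3, 31.9 and 58.1 CPM at 2 dpi (log2FC = 2.11, SE 0.31, adjusted P = 0.000325). Gdf15, a stress-induced relative of TGF-beta, had 2.99, 5.75 and 10.4 CPM at 1 dpi and 19.9, 15.9 and 23.6 CPM at 2 dpi (log2FC = 1.61, SE 0.32, adjusted P = 0.00305). For both genes all 2 dpi libraries were above all 1 dpi libraries. The other 4 increases were less stable. Leaving out 1 dpi replicate 1 or 2 dpi replicate 3 left 2 growth factors called up, and leaving out 1 dpi replicate 2 or 2 dpi replicate 1 left 3. Pdgfa and Pdgfb, of platelet-derived growth factor, were among them, with log2FCs of 1.27 and 1.17. On the falling side stood ligands of the EGF receptor family. Areg had 114, 34.8 and 29.1 CPM at 1 dpi and 9.84, 10.3 and 8.92 CPM at 2 dpi (log2FC = -2.61, SE 0.54, adjusted P = 0.00424), and Nrg1 had 6.84, 10.4 and 8.58 CPM at 1 dpi and 1.20, 0.498 and 0.860 CPM at 2 dpi (log2FC = -3.32, SE 0.49, adjusted P = 0.00037). Replicate 1 of 1 dpi was far above the other replicates for Areg but not for Nrg1. Ereg and Hbegf, of the same family, were called down with log2FCs of -2.87 and -1.26, but Ereg was not called without 1 dpi replicate 1 or 2 dpi replicate 1 or 3, nor Hbegf without replicate 3 of either day. Inhba, the activin A subunit, had 32.5, 13.7 and 20.5 CPM at 1 dpi and 2.55, 4.78 and 3.01 CPM at 2 dpi (log2FC = -2.69, SE 0.39, adjusted P = 0.000286). Osm, which encodes oncostatin M, had 498, 550.2 and 649 CPM at 1 dpi and 157, 138 and 157 CPM at 2 dpi (log2FC = -1.91, SE 0.20, adjusted P = 2.9e-05).

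Of 34 matrix genes 3 were called up and 6 down, and of 17 coagulation genes 2 up and 6 down, beside 5.09% of all genes up and 3.97% down. Without 1 dpi replicate 1 or 3 or 2 dpi replicate 2, the coagulation genes up numbered 1. Plau, which encodes urokinase, had 130.1, 168 and 194 CPM at 1 dpi and 648, 875 and 709 CPM at 2 dpi (log2FC = 2.18, SE 0.42, adjusted P = 0.00262). The urokinase inhibitor gene Serpinb2 fell over the same interval, whereas the urokinase receptor gene Plaur was not called. Timp2, an inhibitor of matrix metalloproteinases, had 30.0, 23.9 and 20.9 CPM at 1 dpi and 96.9, 77.4 and 79.8 CPM at 2 dpi (log2FC = 1.77, SE 0.27, adjusted P = 0.000443). Mmp19, a metalloproteinase, had 203, 206 and 222 CPM at 1 dpi and 64.2, 45.5 and 70.0 CPM at 2 dpi (log2FC = -1.81, SE 0.22, adjusted P = 7.8e-05). Thbs1, which encodes thrombospondin 1, had 12128, 7249.8 and 5229.7 CPM at 1 dpi and 1482, 1481 and 1384 CPM at 2 dpi, so that the lowest 1 dpi library was over 3 times the highest 2 dpi library (log2FC = -2.50, SE 0.31, adjusted P = 8.14e-05). Vcan, which encodes the proteoglycan versican of monocytes, had 1135, 1001 and 791 CPM at 1 dpi and 139.5, 147 and 109 CPM at 2 dpi (log2FC = -2.89, SE 0.57, adjusted P = 0.0032). Coagulation genes F10 and F5 fell with log2FCs of -2.15 and -2.35. In integrins, Itga6, a laminin receptor subunit, had 19.6, 26.5 and 34.1 CPM at 1 dpi and 120.0, 111 and 123 CPM at 2 dpi, while Itga1, a collagen receptor subunit, had 48.7, 40.9 and 36.9 CPM at 1 dpi and 8.71, 9.21 and 9.07 CPM at 2 dpi. The former rose (log2FC = 2.14, SE 0.32, adjusted P = 0.000339) and the latter fell (log2FC = -2.23, SE 0.26, adjusted P = 6.38e-05), each with no overlap.

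Of 13 MHC class II and costimulatory genes 6 were called down and none up, beside 3.97% of all genes down. Of 19 MHC class I genes 1 was called, H2-Q7, with a log2FC of -1.72, while B2m, H2-K1, H2-D1 and Tap2 were not. H2-Q7 was low on both days, with 1.57, 2.71 and 1.80 CPM at 1 dpi and 0.751, 0.448 and 0.645 CPM at 2 dpi. H2-T23 and Tap1 had log2FCs of -0.91 and -0.65 (adjusted P = 0.0191 and 0.0418), under the fold threshold. With 1 dpi replicate 2 left out 2 class I genes were down, and with 2 dpi replicate 3 left out 3 were. Cd40 had a log2FC of 0.82 (adjusted P = 0.0174), under the fold threshold. Cd74, the invariant chain of MHC class II, had 1297, 1158 and 1000.1 CPM at 1 dpi and 346, 445 and 336 CPM at 2 dpi (log2FC = -1.62, SE 0.35, adjusted P = 0.00593). H2-Ab1, a class II beta chain, had 404, 326 and 265 CPM at 1 dpi and 96.9, 121 and 87.2 CPM at 2 dpi (log2FC = -1.70, SE 0.38, adjusted P = 0.00759). In both, replicate 1 was the highest of 1 dpi and the days did not overlap. H2-Eb1 fell with a log2FC of -1.58, and H2-Aa was called with -1.48 but lost the call in 3 of the 12 fits. Genes of this family are similar, and reads may be shared among them. Cd86, a costimulatory ligand, had 68.1, 49.5 and 52.1 CPM at 1 dpi and 16.4, 21.2 and 15.1 CPM at 2 dpi (log2FC = -1.69, SE 0.26, adjusted P = 0.000456), and Cd80 fell with a log2FC of -1.19. The regulator gene Ciita was not called (log2FC -1.66, adjusted P = 0.0582). The complement component gene C3 had 57.8, 64.2 and 102 CPM at 1 dpi and 16.7, 16.4 and 15.3 CPM at 2 dpi (log2FC = -2.21, SE 0.26, adjusted P = 6.98e-05). The C1q genes C1qa, C1qb and C1qc were not called, with log2FCs of 0.87, 0.54 and 0.58. For each of them all 2 dpi libraries were above all 1 dpi libraries. C1qa passed the adjusted P (0.0227) but not the fold threshold. Interferon response genes had 14 of 50 called down and 1 up, but this count was carried by single libraries. Leaving out replicate 1 or 3 of 1 dpi gave 7 or 3 genes down, and leaving out replicate 2 or 3 of 2 dpi gave 4 or 3. The gene up, Iigp1, held in 4 of the 12 fits. The 2 that fell in every fit, Ifi205 and Ifi203, are neighbouring p200 family genes of similar sequence, with log2FCs of -2.58 and -1.64.

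Receptors of cytokines and microbial products were lower where they were called. Csf2rb encodes the beta chain shared by the receptors for GM-CSF, IL-3 and IL-5, and Csf2rb2 a near-identical beta chain of the IL-3 receptor only. Reads of the 2 genes may be shared. Csf2rb2 had 61.8, 46.7 and 59.2 CPM at 1 dpi and 14.1, 11.9 and 12.9 CPM at 2 dpi. Csf2rb had 124, 93.7 and 114 CPM at 1 dpi and 42.0, 40.3 and 41.8 CPM at 2 dpi. The log2FCs were -2.11 (SE 0.23, adjusted P = 3.83e-05) and -1.42 (SE 0.20, adjusted P = 0.000217), with no overlap. Il13ra1, a receptor chain for IL-4 and IL-13, and Il10ra, of the IL-10 receptor, fell with log2FCs of -1.54 and -1.31. Of 29 receptors and ligands of this list 9 were down and none up, and 5 were down without 1 dpi replicate 1. The receptor for M-CSF was not called, while its ligand gene Csf1 had 35.4, 29.8 and 30.1 CPM at 1 dpi and 9.16, 15.6 and 12.97 CPM at 2 dpi (log2FC = -1.34, SE 0.23, adjusted P = 0.00128). Tlr2, the receptor for bacterial lipopeptides, had 1155, 865 and 829 CPM at 1 dpi and 411, 426 and 373 CPM at 2 dpi (log2FC = -1.24, SE 0.24, adjusted P = 0.00257). Of 25 Toll-like receptor genes and adaptors 6 were down, beside 3.97% of all genes, but 1 without 1 dpi replicate 1.

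Bcl2a1d and Bcl2a1a are near-identical copies of an anti-apoptotic BCL-2 relative, and their reads may be shared. Bcl2a1d had 27.3, 25.7 and 37.0 CPM at 1 dpi and 7.36, 7.32 and 8.49 CPM at 2 dpi (log2FC = -1.96, SE 0.31, adjusted P = 0.00064), and Bcl2a1a fell with a log2FC of -2.60. The pro-apoptotic gene Pmaip1, which encodes NOXA, had 54.5, 41.6 and 47.3 CPM at 1 dpi and 9.16, 16.3 and 12.3 CPM at 2 dpi (log2FC = -1.92, SE 0.27, adjusted P = 0.000239). Of 20 genes of the BCL-2 family list 6 were down and 1, Bcl2, up, beside 3.97% and 5.09% of all genes. Bcl2 was not called without 1 dpi replicate 1 or 2 dpi replicate 1 or 3. The ubiquitin ligase gene Birc3, a target of NF-kappaB, fell with a log2FC of -1.11 (SE 0.22, adjusted P = 0.00271). Of 38 immediate-early and AP-1 genes 10 were called down and none up, with 6 left without 2 dpi replicate 1 or 2 and 5 without replicate 3. Ier3 had 1850.4, 1199 and 1120.4 CPM at 1 dpi and 494, 525 and 448 CPM at 2 dpi (log2FC = -1.51, SE 0.26, adjusted P = 0.00138), and Egr2 212, 209 and 271 CPM at 1 dpi and 102, 93.6 and 88.5 CPM at 2 dpi (log2FC = -1.29, SE 0.26, adjusted P = 0.00321). Jund, Ier2 and Dusp1 were called down with log2FCs of -1.40, -1.11 and -1.02, in 5, 6 and 7 of the 12 fits, and Fos and Jun were not called, with log2FCs of -0.26 and 0.10. Of 38 macrophage transcription factors 3 were called, all down, beside 5.09% of all genes up and 3.97% down. Of these, Cebpe was called in 9 of the 12 fits. Tfec, a relative of the lysosomal regulator TFEB, fell with a log2FC of -1.98 (SE 0.27, adjusted P = 0.000217) and Id3, an inhibitor of E proteins, with -1.61 (SE 0.32, adjusted P = 0.00291).

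Hif1a, the oxygen-sensitive subunit of HIF-1, had 1097, 807 and 698 CPM at 1 dpi and 335, 267 and 280.1 CPM at 2 dpi (log2FC = -1.56, SE 0.21, adjusted P = 0.000176). Vegfa, vascular endothelial growth factor, had 61.3, 54.1 and 57.4 CPM at 1 dpi and 13.9, 16.8 and 17.0 CPM at 2 dpi (log2FC = -1.86, SE 0.40, adjusted P = 0.00555). The days were apart for both, and the replicates of Vegfa were close. Ddit4, an inhibitor of mTORC1 induced by hypoxia, and Nupr1, a stress-induced chromatin protein, fell with log2FCs of -1.95 and -1.24. Of 22 hypoxia genes 5 were called down, beside 3.97% of all genes, and none up, with a median of -0.68. Bnip3, of mitophagy, had 112, 34.0 and 35.9 CPM at 1 dpi and 21.6, 21.0 and 31.0 CPM at 2 dpi, was called in 5 of the 12 fits, and its log2FC of -1.30 became -0.50 without 1 dpi replicate 1. Outside the list, Slc16a3, the lactate exporter MCT4, had 639, 314 and 377 CPM at 1 dpi and 103, 121 and 147 CPM at 2 dpi (log2FC = -1.84, SE 0.43, adjusted P = 0.0088). The core of the hypoxia response element, searched as ACGTG, was in 70.6% of 17 hypoxia genes, 24.9% of tested genes and 18.5% of all genes, and in 26.6% of all downregulated genes. It is contained in the E-box CACGTG, which counts on both strands. The windows of Hif1a and Nupr1, which fell, are shown with ACGTG and its reverse complement in capitals.
Hif1a, chr12:73907617-73907866, plus strand: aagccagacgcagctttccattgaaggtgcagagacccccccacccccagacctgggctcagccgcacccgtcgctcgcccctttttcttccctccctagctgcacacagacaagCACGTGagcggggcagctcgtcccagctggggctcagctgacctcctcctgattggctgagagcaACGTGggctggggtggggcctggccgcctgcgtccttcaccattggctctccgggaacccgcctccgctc
Nupr1, chr7:126625471-126625720, minus strand: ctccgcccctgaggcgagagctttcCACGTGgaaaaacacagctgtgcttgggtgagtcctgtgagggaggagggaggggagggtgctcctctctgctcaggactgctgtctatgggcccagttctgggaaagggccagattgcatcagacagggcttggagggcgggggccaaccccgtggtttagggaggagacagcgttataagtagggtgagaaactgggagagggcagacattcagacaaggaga
In both windows a capital stretch is the full E-box, and Hif1a has 1 further match.

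In glycolysis the calls rested on single libraries. Slc2a1, the glucose transporter GLUT1, had 165, 91.1 and 131 CPM at 1 dpi and 41.6, 46.4 and 49.1 CPM at 2 dpi, Pgk1 had 794, 546 and 564 CPM at 1 dpi and 274, 283 and 289 CPM at 2 dpi, and they and Pfkl were called down, while Pfkm was called up. Pfkm was not called without replicate 1 of either day or 1 dpi replicate 3. Of the 3 down, none was called without 1 dpi replicate 1, 2 dpi replicate 1 or 2 dpi replicate 2, and 1 was without 2 dpi replicate 3. The median log2FC of the 20 genes was -0.44, and in 13 of 20 all 2 dpi libraries were below all 1 dpi libraries, beside 18.5% of all genes. The TCA cycle had 20 of 23 genes with a positive log2FC and 1 called up, beside 5.09% of all genes. The called gene was Mdh1, a malate dehydrogenase of the cytosol, with 33.3, 42.7 and 43.3 CPM at 1 dpi and 100.0, 102 and 97.7 CPM at 2 dpi (log2FC = 1.33, SE 0.24, adjusted P = 0.00147). None of 72 nuclear genes of the respiratory chain was called by edgeR, 2 passed an unadjusted P of 0.05, both up, and DESeq2 and limma-voom called none. Their median log2FC was 0.05. Transcripts of the mitochondrial DNA were lower in 11 of 13 cases, with a median of -0.78. The most abundant of them, mt-Rnr2, was not called (log2FC -1.14, adjusted P = 0.0578). Those called, mt-Rnr1 and mt-Co1, were at 447, 452 and 494 CPM and 749, 809 and 951 CPM at 1 dpi and 246, 232 and 213 CPM and 434, 325 and 357 CPM at 2 dpi. Neither was called without 1 dpi replicate 3, 2 dpi replicate 2 or 2 dpi replicate 3, and 4 genes were called without replicate 1 or 2 of 7 dpi, which enter the estimate of spread.

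Amino acid genes had 1 up and 3 down of 38, redox genes none up and 3 down of 31, and iron genes 1 up and 2 down of 28. These counts stand beside 5.09% up and 3.97% down of all genes. Without 4 dpi replicate 1 or 2, which enter the estimate of spread, 4 iron genes were down. Slc7a11, the cystine importer that feeds glutathione synthesis, had 106, 56.0 and 82.8 CPM at 1 dpi and 7.74, 10.2 and 8.24 CPM at 2 dpi. Gsr, glutathione reductase, had 131, 103 and 84.9 CPM at 1 dpi and 19.8, 17.0 and 21.2 CPM at 2 dpi (log2FC = -2.46, SE 0.29, adjusted P = 6.6e-05). Both fell without overlap, yet 28 of the 31 antioxidant genes tested were not called, among them Hmox1 and Prdx1 with log2FCs of 0.17 and 0.10. Trf, which encodes transferrin, had 226, 191 and 174 CPM at 1 dpi and 59.3, 54.9 and 45.7 CPM at 2 dpi (log2FC = -1.89, SE 0.43, adjusted P = 0.00825). Lcn2, a siderophore-binding protein also stored in neutrophils, fell with a log2FC of -3.69, and Hebp1, a heme-binding protein, rose with 2.204 (SE 0.32, adjusted P = 0.00028). Slc27a1, a fatty acid transporter, had 32.8, 22.6 and 46.9 CPM at 1 dpi and 154, 126 and 166 CPM at 2 dpi (log2FC = 2.12, SE 0.31, adjusted P = 0.000313), and Fads1, a fatty acid desaturase, rose with a log2FC of 1.33 (SE 0.21, adjusted P = 0.000642). The transporter genes Slc38a6 and Slc43a3 rose with log2FCs of 1.75 and 2.32, and the peptide and histidine transporter gene Slc15a3 fell with -1.20. Psph, of serine synthesis, rose with 1.59 (SE 0.27, adjusted P = 0.000957).

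Several genes used as markers of alternative activation were higher at 1 than at 2 dpi. Chil3, a chitinase-like protein, had 2364, 1766 and 1386 CPM at 1 dpi and 348, 215 and 248 CPM at 2 dpi (log2FC = -2.77, SE 0.51, adjusted P = 0.00202). Arg1, arginase 1, had 2094, 1308 and 1421 CPM at 1 dpi and 246, 264 and 251 CPM at 2 dpi (log2FC = -2.66, SE 0.66, adjusted P = 0.0138). All 1 dpi libraries of Arg1 were several times above all 2 dpi libraries, but the call was lost when any of the 3 libraries of 2 dpi was left out (adjusted P from 0.0504 to 0.0551). Arg2 and Smox, spermine oxidase, fell with log2FCs of -2.50 (SE 0.50, adjusted P = 0.00335) and -1.96 (SE 0.26, adjusted P = 0.000157). Folr2, a folate receptor of resident macrophages, moved the other way and had 3.14, 2.42 and 2.12 CPM at 1 dpi and 7.59, 7.77 and 7.17 CPM at 2 dpi (log2FC = 1.56, SE 0.24, adjusted P = 0.000445). The mannose receptor gene Mrc1 was not called (log2FC -0.70, adjusted P = 0.193). The list had 8 of 22 down and 1 up, and 4 down without 1 dpi replicate 1 or 2 dpi replicate 2.

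The lists of machinery common to all cells, and that of sterol efflux, showed no called gene. No member was called among 80 ribosomal protein genes, 61 genes of ribosome biogenesis, 38 of the proteasome, 30 of the unfolded protein response, 18 of heat shock and 13 of sterol efflux by edgeR, DESeq2 or limma-voom. At an unadjusted P under 0.05, edgeR had 0 up and 6 down, 0 and 2, 1 and 0, 1 and 4, 2 and 0, and 5 and 0, in that order. The median log2FC of the first 5 lists lay between -0.07 and 0.12, and that of sterol efflux was 0.48. Some members passed the adjusted P but not the fold threshold. Examples were Rps27 and Rps9, with log2FCs of -0.80 and -0.66 (adjusted P = 0.00473 and 0.0203), and Lpcat3 of sterol efflux, with 0.55 (adjusted P = 0.0481).

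Values of the later days, set beside those of 1 and 2 dpi, show that some genes had their lowest or highest mean at 2 dpi. They were chosen after their values were seen, comparisons with later days share the libraries of 2 dpi, and no test is given. The mean of Cd74 was 1152 CPM at 1 dpi, 376 CPM at 2 dpi, 1146 CPM at 4 dpi and 4958 CPM at 7 dpi. Fcgr4 was at 42.5, 11.6, 59.98 and 54.4 CPM on the 4 days, and Clec7a at 161, 38.0, 216 and 227 CPM. Trf had 294 CPM at 4 dpi and 774 CPM at 7 dpi after 53.3 CPM at 2 dpi. Csf2rb2, at 55.9, 12.97, 35.1 and 36.9 CPM on the 4 days, had later means above that of 2 dpi and below that of 1 dpi. Libraries of 4 dpi differed widely among themselves for Cd74, Clec7a and Trf. Other genes had their highest mean at 2 dpi. Ccnd1 was at 21.4, 202, 70.4 and 51.5 CPM, and Ch25h at 2.15, 18.3, 2.81 and 1.39 CPM. Plau had 214 CPM at 4 dpi and 49.5 CPM at 7 dpi after 744 CPM at 2 dpi, and Stab1 had 551 CPM at 4 dpi and 341 CPM at 7 dpi after 869.8 CPM.

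**Figure D5:**
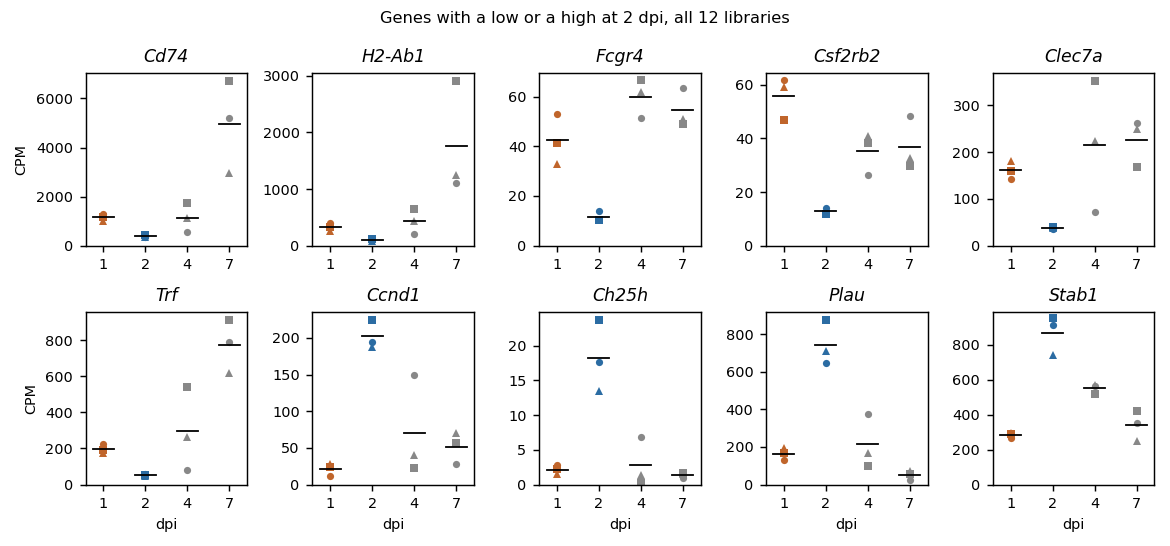
CPM (y-axis) of 10 genes in all 12 libraries at 1, 2, 4 and 7 dpi (x-axis, not to scale), with 1 point per library and the mean as a bar. Cd74, H2-Ab1, Fcgr4, Csf2rb2, Clec7a and Trf have their lowest mean at 2 dpi, and Ccnd1, Ch25h, Plau and Stab1 their highest.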

How the data were processed

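RNA of sorted muscle macrophages was measured at 1, 2, 4 and 7 dpi, 3 libraries each. The libraries were made by Smart-seq2/3 from oligo-dT primed cDNA, which does not keep the strand, so overlapping antisense genes are not separated. The submitters' processing notes name Trim Galore 0.6.6, HISAT2 2.2.1, Subread 2.0.1 and the build GRCm39, and the authors deposited raw counts per gene. Depth is given with the results. Of counts between 1 and 20, 80.9% to 85.5% per library were even. Whether mates were counted singly is not given in the sources used here, and halved counts were tried for that reason.

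The deposited counts were tested with edgeR 4.0.16 under R 4.3.3. After filterByExpr and TMM scaling, a model with a separate coefficient for each time point was fitted over all 12 libraries, and quasi-likelihood tests compared 2 with 1 dpi with Benjamini-Hochberg adjustment. Called genes had an adjusted P under 0.05 and an absolute log2FC above 1, as in the study's methods. CPM values use TMM factors. Symbols were joined by Ensembl ID from a table of mouse gene names (52081 of 55414 IDs) and no gene coordinates are given. Promoter windows and their sequences are from RefSeq on GRCm38.p6. Same-numbered replicates of the 2 days did not deviate together, so no pairing was used.

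The comparison, gene lists and rule for naming genes were chosen with earlier results of these data known. The rule named the 15 largest increases and 15 largest decreases with a mean log2 CPM reaching 4 on the higher day, no overlap between libraries, a call in all 12 fits without 1 library, no predicted-gene name and no place in the lists of inflammation, monocytes, replication, mitosis or other cells. It also named, per list, up to 4 called genes of smallest P that held in those fits and up to 2 of the opposite direction. Some genes named by the rule are not reported here. Other list members are given for their value, whether called or not. Alternatives were other filters and scalings, DESeq2 1.42.0, limma-voom (limma 3.58.1), the 6 libraries alone, the replicate number as a block, removal of the most abundant gene, halved counts, no fold threshold and each library left out.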

Additional observations from a re-analysis of the deposited data

How the results depend on the processing

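The rule required the 135 genes it named to be called in the 12 fits that left out a library, so those fits say nothing of their stability. They were also called in the same direction under each of the other 10 alternatives that gave them a value. Dropping the fold threshold cannot remove a call, so that alternative says nothing of their stability either. DESeq2 gave no adjusted P for Retnla. Under other settings than leaving out a library, upregulated genes were within 1.5 times the 729 reported except with limma-voom (479). The upregulated share of called genes was 56.2%, and 51.9% without a filter on low counts, 53.2% with RLE factors, 50.7% with DESeq2, 52.0% with limma-voom and 49.6% in a fit of the 6 libraries alone. Leaving out 1 library, the genes upregulated from 1 to 2 dpi numbered 544 to 756, the genes downregulated from 1 to 2 dpi 352 to 653, and the upregulated share ranged from 53.7% to 61.1%. The lowest counts of downregulated genes came from leaving out 2 dpi replicate 3 (352) or replicate 2 (376). The replicate numbers did not pair the samples, as deviations of same-numbered libraries correlated at 0.00637, 0.0316 and 0.0504 across genes, and a fit with the replicate block called 703 genes up and 553 down. Under the alternatives 215 list counts differed over 1.5 times from those reported and 2645 did not, and 217 list medians moved by more than the spread between replicates and 1169 did not. Depth limits genes near 0 on 1 day, such as E2f7 and Fancd2, whose differences are given as values.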
